A study of Homo sapiens with 6 samples.

Results

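Genes whose products build, move or time the mitotic chromosomes were compared between 3 HCT116 cultures labelled Rab27B KO and 3 labelled wild type. They were taken by symbol from 2 tables of the authors' comparison. The symbols were those of centromere proteins, kinesins, Aurora kinases, BUB proteins, the Ndc80 complex, mitotic cyclins and subunits of the anaphase-promoting complex. CDC20, CDC25B, SMC and condensin subunits, CEP centrosome proteins and augmin (HAUS) subunits were also taken. So were 13 further single genes such as MKI67, PLK1 and TOP2A. The rule found 83 of the 7681 listed genes. HCT116 is a cell line from a human colorectal carcinoma, and all 6 cultures were untreated and grown for 48 hours before RNA sequencing. The study asked what loss of the secretory-vesicle GTPase RAB27B does to these cells, and the labels state a CRISPR/Cas9 deletion. The sources used here do not say whether the edited cells were 1 clone.

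In mitosis, cyclin B with CDK1 starts chromosome condensation, which condensin and topoisomerase II carry out, while cohesin holds sister chromatids together. Centromere proteins build a kinetochore on each chromatid, the Ndc80 complex grips spindle microtubules, and the spindle checkpoint restrains the anaphase-promoting complex (APC/C) until every chromosome is attached. The APC/C then has securin and cyclin B destroyed, separase cuts cohesin, and kinesins and cytokinesis factors divide the cell. Many of these genes are transcribed mainly in G2 and M phase through MuvB complexes that bind promoter elements called CHR, and in resting or arrested cells the DREAM complex silences them.

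The tables give 1 log2 fold change and 1 q-value per gene for the whole comparison, so no value per sample, no spread between replicates and no standard error can be shown, and the read depth is unknown. Only genes with q below 0.05 are listed, 3898 higher and 3783 lower in the cultures labelled Rab27B KO. A gene in neither table may have been unchanged, too weakly expressed or not measured. RNA of RAB27B itself disagreed with the label: it stood at 5.20 (log2 of labelled Rab27B KO over wild type) per the authors' deposited table. Every direction below is therefore that of the cultures labelled Rab27B KO, compared with the cultures labelled wild type. The tables hold no expression levels, so the labelled cell type could not be checked by its markers. Of 9 colon epithelial markers 7 were listed, 4 higher and 3 lower, from -1.15 to 2.08 on the log2 scale per the authors' deposited table. Of 4 leukocyte markers 1 was listed, CD68, higher at 1.81, and of 6 fibroblast and endothelial markers 2, COL3A1 at 1.77 and COL1A1 at -0.40, per the authors' deposited table. The part of these markers in the results was not tested.

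The mitotic genes were lower more often than higher, and by little. Of the 83 listed, 30 were higher and 53 lower, so that 36.1% were higher beside 50.7% of all listed genes. Their median log2 fold change was -0.23 per the authors' deposited table, and that of all listed genes was 0.12. Most changes were small: the median size was 1.26-fold, compared with 1.33-fold over all listed genes. A log2 change of at least 1 was listed for 2 members (2.41%), HAUS1 and KIF1A, beside 12.6% of all listed genes. The q-value was below 0.01 for 70 members, or 84.3%, beside 84.9% of all listed genes. For 24 members the log2 change was smaller than 0.25 per the authors' deposited table. The direction of such small changes rests on how the authors scaled the samples, which the sources used here do not give. The member with the highest q-value was TOP2A, at a log2 fold change of 0.09 with q = 0.0460 per the authors' deposited table.

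**Figure D1:**
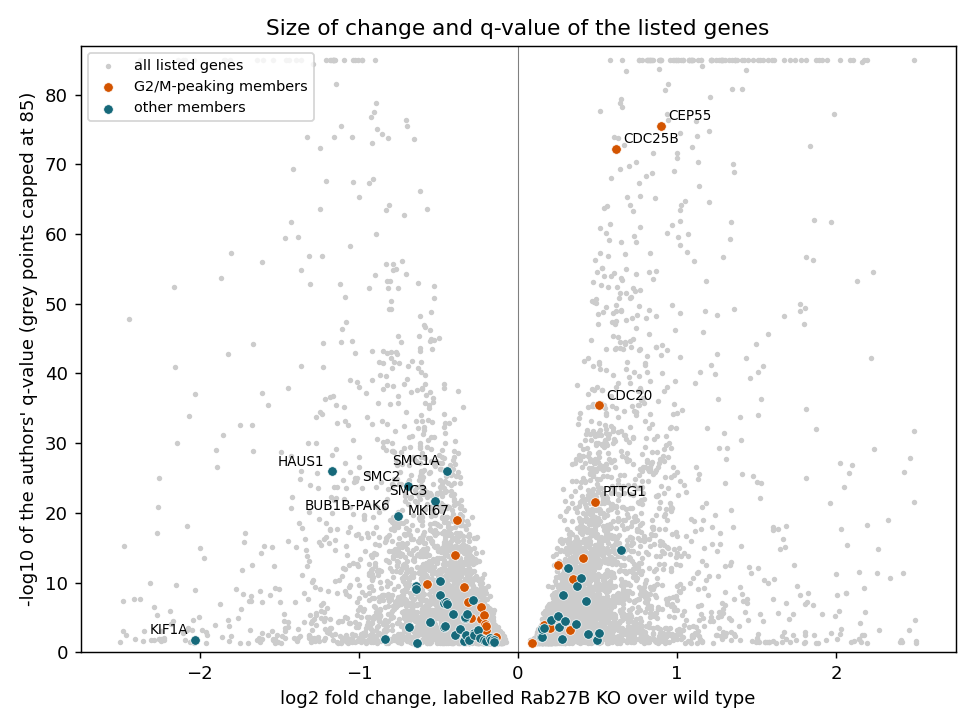
Each point is a gene, with its log2 fold change (labelled Rab27B KO over wild type) on the x axis and -log10 of the authors' q-value on the y axis. Grey points are all listed genes within the drawn range of the x axis and with a q-value above 0, and coloured points are the 83 mitotic genes; CEP55 and CDC25B stand highest among the members, and KIF1A and HAUS1 lie farthest to the left.

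By reference annotation, 170 genes carry a symbol of this family. Of these 83 were listed under such a symbol, 1 was listed under an older name (FOPNL, now CEP20, higher by 0.19 on the log2 scale per the authors' deposited table), and 86 were in neither table. The genes in neither table included CCNB1, BUB1, TTK, NDC80, FOXM1, CENPA, CENPE, KIF11, KIF20A and KIF23, all central to mitosis. The 83 listed genes fell into 13 roles, with 3 genes left that matched by name only. In 8 of these 14 groups more members were lower than higher.

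**Figure D2:**
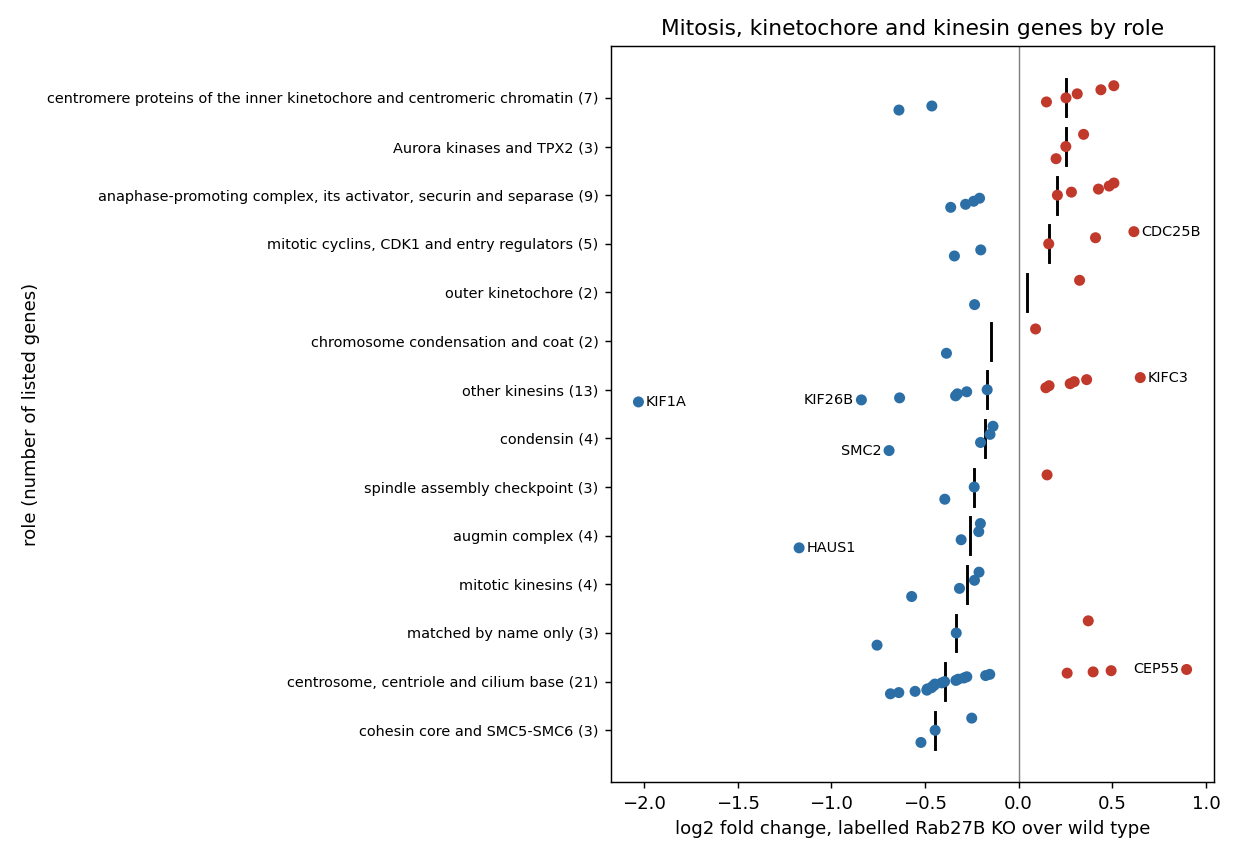
Points are the 83 genes by role (rows, number of listed genes in brackets), on an x axis of log2 fold change, labelled Rab27B KO over wild type. Black bars are medians over the genes of a row; red genes were higher and blue genes lower, and all listed condensin, cohesin and SMC5-SMC6, augmin and mitotic kinesin genes lie left of 0.

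Regulators of mitotic entry went both ways. CDC25B, the phosphatase that first activates CDK1 at the centrosome, was 1.53-fold higher with q = 5.41e-73 per the authors' deposited table. CDK1, the mitotic kinase itself, was 1.33-fold higher (q = 3.16e-14), and PLK1, the polo-like kinase of mitotic entry and spindle assembly, 1.12-fold higher (q = 0.00011) per the authors' deposited table. The 2 listed cyclins moved the other way. CCNA2, cyclin A, which acts in S and G2 phase, was 1.27-fold lower with q = 4.66e-10 per the authors' deposited table. CCNB2, a partner of CDK1, was 1.15-fold lower (q = 0.000196) per the authors' deposited table. The cyclin genes lie on chromosomes 4 and 15, where most listed genes of any function were lower, and the 3 higher genes on chromosomes 20, 10 and 16. On chromosomes 20, 10 and 16, 64.3%, 52.4% and 53.5% of all listed genes were higher. Within 5 Mb of CDC25B 22 other listed genes were higher and 16 lower. Within 5 Mb of CDK1 4 were higher and 10 lower, and within 5 Mb of PLK1 13 and 23. The part of position in these directions was not tested.

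Aurora kinase genes were slightly higher. On the log2 scale AURKA, the centrosomal and spindle kinase, stood at 0.20 and its activator TPX2 at 0.25 per the authors' deposited table. AURKB, the kinase of the chromosomal passenger complex, stood at 0.35 (q = 3.25e-11) per the authors' deposited table. AURKAIP1, taken in only through its symbol, encodes a mitochondrial ribosomal protein and was 1.29-fold higher per the authors' deposited table. It is not counted with the kinases.

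Checkpoint genes were split by chromosome too. BUB1B encodes BubR1, the checkpoint protein that inhibits CDC20, and was 1.31-fold lower with q = 9.55e-15 per the authors' deposited table. MAD2L1, which encodes the checkpoint protein Mad2, had a log2 fold change of -0.24 (q = 0.00176) per the authors' deposited table. BUB3, the binding partner of BubR1, had one of 0.15 (q = 0.000446) per the authors' deposited table. BUB1B lies on chromosome 15 (GRCh38.p14, 40161069 to 40221123) and MAD2L1 on chromosome 4. A readthrough transcript that joins BUB1B to the next gene, BUB1B-PAK6, was listed separately at -0.76 per the authors' deposited table. Both annotations share exons, so their values are uncertain where the counting split reads between them.

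For the APC/C and its substrates, activator and securin were higher and the subunits divided. CDC20, the activator that the checkpoint holds back, was 1.42-fold higher with q = 3.76e-36 per the authors' deposited table. PTTG1, securin, the inhibitor of separase, was 1.40-fold higher (q = 2.52e-22), and ESPL1, separase, 1.16-fold lower per the authors' deposited table. Log2 fold changes of the subunit genes per the authors' deposited table were 0.43 for ANAPC11, the catalytic RING subunit, 0.28 for CDC27 and 0.21 for ANAPC5. Those of ANAPC4, ANAPC1 and ANAPC13 were -0.36, -0.28 and -0.24 per the authors' deposited table. Together with CDC16 and CDC26, which the symbol rule does not take in, 8 of 14 APC/C subunit genes were listed, 3 higher and 5 lower. By contrast, the activators CDC20 and FZR1 and the ubiquitin-conjugating enzymes UBE2C and UBE2S were all listed as higher, as were 50.7% of all listed genes. UBE2S, which extends ubiquitin chains on APC/C substrates, was 1.70-fold higher with q = 1.92e-50 per the authors' deposited table. These groupings of subunits and activators were made after the values were seen.

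Inner kinetochore genes were mostly higher. Of 17 genes of centromeric chromatin and the constitutive centromere network 7 were listed, 5 higher and 2 lower. That is 71.4% higher beside 50.7% of all listed genes. Their longest coding transcripts were short, with a median of 1998 bases, and of all listed genes up to 2212 bases 72.3% were higher. CENPB, which binds a repeat motif in centromeric DNA, was 1.24-fold higher with q = 9.63e-13 per the authors' deposited table. CENPQ and CENPW, subunits of the centromere network, had log2 fold changes of 0.51 and 0.44 per the authors' deposited table. CENPN, which reads the centromeric nucleosome, stood at 0.25 and CENPX at 0.15 per the authors' deposited table. The lower genes were CENPU, which docks polo-like kinase at the kinetochore, at -0.64 (q = 8.32e-10), and CENPC, the scaffold that links centromeric chromatin to the outer kinetochore, at -0.46 per the authors' deposited table. Both lie on chromosome 4. At the outer kinetochore 2 of 6 genes were listed: NUF2, a subunit of the Ndc80 complex, at 0.33, and CENPF, a microtubule-binding protein, at -0.23 per the authors' deposited table. CENPV, a centromere protein outside these groups, stood at -0.33 per the authors' deposited table.

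Among genes that shape and hold chromosomes, all those listed were lower apart from TOP2A, beside 49.3% lower of all listed genes. SMC2, the ATPase shared by both condensins, was 1.61-fold lower with q = 1.56e-24 per the authors' deposited table. Its partner SMC4 and the kleisin genes NCAPH and NCAPH2 had log2 fold changes of -0.14, -0.20 and -0.15 per the authors' deposited table. The other 4 condensin genes, NCAPD2, NCAPD3, NCAPG and NCAPG2, were in neither table. SMC3 and SMC1A, the ATPases of the cohesin ring, were 1.43-fold (q = 1.76e-22) and 1.36-fold (q = 8.70e-27) lower per the authors' deposited table. SMC5, of the SMC5-SMC6 complex in DNA repair, was 1.19-fold lower per the authors' deposited table. None of these condensin, cohesin and SMC5 genes lies on chromosomes 4, 7, 13 or 15. MKI67, whose product Ki-67 coats mitotic chromosomes, was 1.31-fold lower (q = 1.09e-19) per the authors' deposited table.

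The lower cohesin genes extended beyond the SMC subunits. Of 13 genes for the cohesin ring, its loader and its regulators 10 were listed, and all 10 were lower, beside 49.3% of all listed genes. Their median log2 fold change was -0.30 per the authors' deposited table. PDS5B, a cohesin release and maintenance factor on chromosome 13, had the largest fall, of -0.71 with q = 1.47e-17 per the authors' deposited table. PDS5A lies on chromosome 4. On chromosomes 4 and 13, 16.8% and 13.5% of all listed genes were higher. Outside these 2 chromosomes 8 genes of the set were lower and 0 higher. Per the authors' deposited table, RAD21, the ring subunit cut by separase, stood at -0.26, STAG2 at -0.24 and the loader gene NIPBL at -0.34. The longest coding transcripts of the 10 genes ran from 3749 bases for RAD21 to 10435 for NIPBL. Of all listed genes from 3521 to 5387 bases 43.9% were higher, and of those from 5388 bases 32.2%. The part of position and length in the direction of the cohesin genes was not tested. WAPL, CDCA5 and ESCO1 were in neither table. This set, which draws on 2 lists, was put together after its values were seen, and no test was made of it.

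Of 15 kinesin genes with a known role in mitosis 4 were listed, and all 4 were lower, beside 49.3% of all listed genes. KIF15, a spindle motor that backs up the bipolar motor KIF11, was 1.49-fold lower with q = 1.86e-10 per the authors' deposited table. KIF18A, which damps chromosome movements at the metaphase plate, was 1.24-fold lower (q = 6.13e-08) per the authors' deposited table. On the log2 scale KIF18B, which destabilises astral microtubules, stood at -0.24 and the chromosome-arm motor KIF22 at -0.21 per the authors' deposited table. The other 11, KIF11 among them, were in neither table.

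Kinesins of transport and cilia went both ways, with 6 of 13 listed genes higher. That is 46.2%, near the 50.7% of all listed genes. KIFC3, a minus-end-directed motor, was 1.57-fold higher with q = 2.39e-15 per the authors' deposited table. Conventional kinesin heavy chains differed among themselves: KIF5B, the ubiquitous form, and KIF5C had log2 fold changes of 0.16 and 0.28, and KIF5A one of -0.34 per the authors' deposited table. The kinesin-2 genes KIF3B and KIF3C stood at 0.15 and 0.36, and KIF13A at 0.30 per the authors' deposited table. KIF1A, a neuronal motor of synaptic vesicle precursors, showed the largest change of all 83 genes, a log2 fold change of -2.03, with q = 0.0161 per the authors' deposited table. KIF26B at -0.84 (q = 0.0143) and KIF17, a ciliary motor, at -0.64 (q = 0.0447) likewise paired larger folds with high q-values per the authors' deposited table. Without counts, the number of reads behind these folds is unknown. The remaining lower genes were KIF24 at -0.33, KIF26A at -0.28 and KIFC2 at -0.17 per the authors' deposited table.

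Augmin and centrosome genes made up much of the lower side. Augmin recruits the microtubule nucleator to existing spindle fibres, so that the spindle branches. Of its 8 subunit genes 4 were listed, all lower, beside 49.3% of all listed genes. HAUS3 lies on chromosome 4 and HAUS2 on chromosome 15, where most listed genes of any function were lower. HAUS1 (chromosome 18, 46104385 to 46128333) was 2.25-fold lower with q = 1.09e-26 per the authors' deposited table. HAUS3, HAUS2 and HAUS4 followed at log2 fold changes of -0.31, -0.21 and -0.20 per the authors' deposited table, with q-values from 0.0149 to 0.0264. HAUS1 thus stood apart from the other listed subunits in size. Within 5 Mb of HAUS1 12 other genes were listed, 5 higher and 7 lower, with a median of -0.21 per the authors' deposited table. Exons of HAUS1 overlap those of ATP5F1A on the opposite strand, a gene in neither table.

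Of 21 listed centrosome, centriole and cilium genes 17 were lower and 4 higher, with a median log2 fold change of -0.39 per the authors' deposited table. That is 19.0% higher beside 50.7% of all listed genes. Genes of centriole duplication were among the lower: PLK4, its master kinase, at -0.49 (q = 5.96e-09), CEP152, which recruits PLK4, at -0.55, CEP192, the other PLK4 receptor, at -0.45, and CENPJ (also CPAP), which sets centriole length, at -0.64 per the authors' deposited table. CEP135 and CEP295, of centriole assembly, stood at -0.39 and -0.41 per the authors' deposited table. PLK4 and CEP135 lie on chromosome 4, CEP152 on 15 and CENPJ on 13, whereas CEP192 and CEP295 lie on 18 and 11. Ciliary genes were lower as well, with CEP162 at -0.68 and CEP290, of the ciliary transition zone, at -0.46 per the authors' deposited table. CEP68 and CEP57, of centrosome cohesion and the pericentriolar region, stood at -0.49 and -0.47 per the authors' deposited table. ASPM, the spindle pole protein whose loss causes microcephaly, was 1.22-fold lower (q = 1.10e-05) per the authors' deposited table. The other 6 lower genes were CEP131, CEP350, CEP78, CEP89, CEP95 and CEP170, from -0.45 to -0.15 per the authors' deposited table.

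CEP55 was the exception in this group and the largest rise of all 83 genes. Its product brings the abscission machinery to the midbody at the end of cytokinesis, and it also localises to centrosomes. CEP55 (chromosome 10, 93496612 to 93529092) was 1.86-fold higher with q = 2.68e-76 per the authors' deposited table. Other listed genes within 5 Mb of it numbered 34, of which 16 were higher and 18 lower. CEP85 and CEP85L were also higher, standing at 0.40 and 0.49 on the log2 scale per the authors' deposited table. Of all listed genes 50.7% were higher. Of 9 genes of the spindle midzone and cytokinesis, a set put together after the values were seen, 5 were listed and all 5 were higher: CEP55, RACGAP1, ECT2, ANLN and PRC1. Apart from CEP55 their log2 fold changes ran from 0.15 for PRC1 to 0.31 for ANLN per the authors' deposited table.

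The position of a gene moved with its direction. All 14 members on chromosomes 4, 13 and 15 were lower, 8 on chromosome 4, 1 on 13 and 5 on 15, and chromosome 7 held none. On chromosomes 4, 7, 13 and 15 together 22.9% of all listed genes were higher. Outside them 30 members were higher and 39 lower, or 43.5% higher, beside 55.4% of all listed genes there. The median log2 fold change there was -0.18 for members and 0.18 for all listed genes per the authors' deposited table. These 4 chromosomes were chosen because few of their listed genes were higher. With them left out, mitotic entry genes were 3 higher and 0 lower, checkpoint genes 1 and 0, and inner kinetochore genes 5 and 0. Condensin (0 higher and 4 lower), cohesin core and SMC5 (0 and 3) and mitotic kinesins (0 and 4) had no listed genes on these chromosomes. Their counts therefore could not change. Centrosome genes went from 4 higher and 17 lower to 4 and 13, and augmin genes from 0 and 4 to 0 and 2. All 5 members on chromosome 20 (AURKA, TPX2, CDC25B, CENPB and KIF3B) were higher, where 64.3% of all listed genes were higher. Whether chromosome copy number differed between the cultures was not tested.

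**Figure D3:**
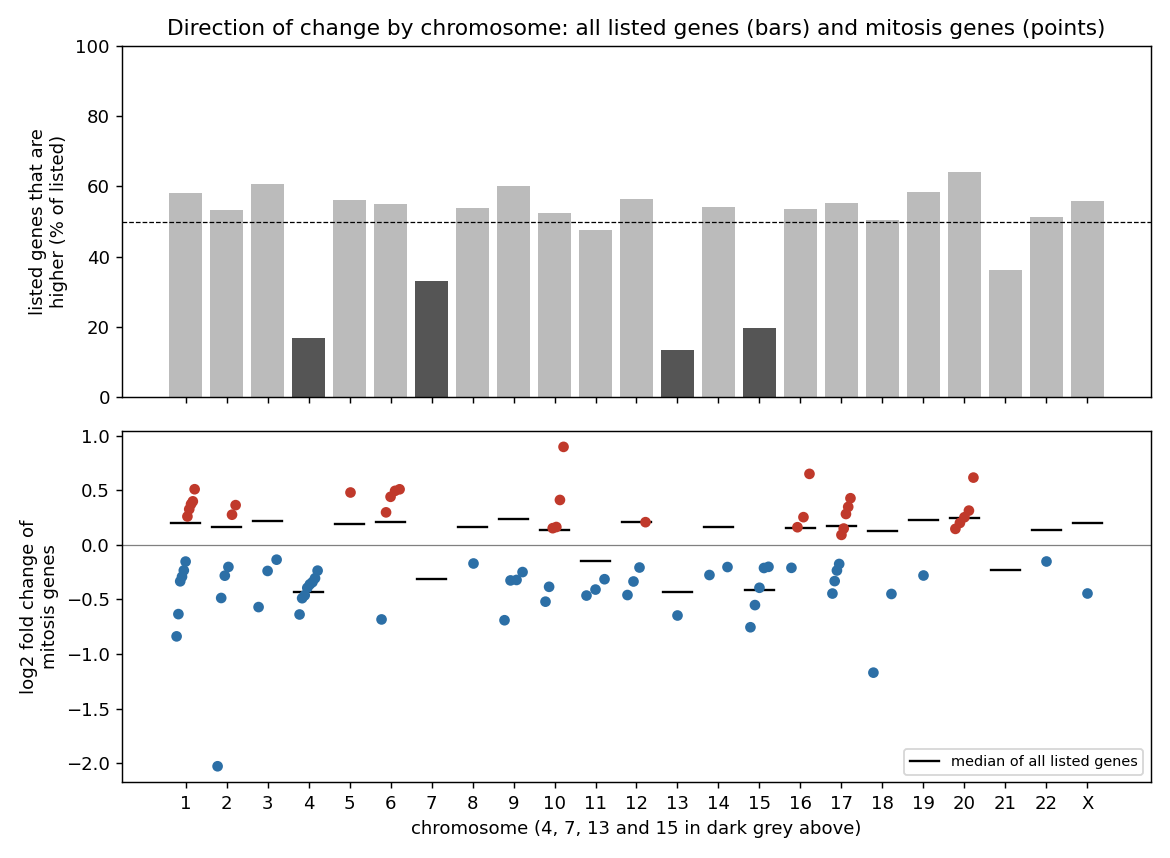
The upper panel gives, for each chromosome, the percentage of all listed genes that were higher, with chromosomes 4, 7, 13 and 15 in dark grey and a dashed line at 50%. The lower panel gives the log2 fold change of each mitotic gene as a point and the median of all listed genes as a black line; the 14 members on chromosomes 4, 13 and 15 all lie below 0, and the 5 on chromosome 20 all above.

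Transcript length moved with direction as well. The longest coding transcript had a median of 2739 bases among the 30 higher members and 5468 bases among the 53 lower ones. Over all listed genes these medians were 2809 and 4287 bases. The listed genes were divided by length into 4 classes of nearly equal size. In the shortest class, up to 2212 bases, 10 of 16 members were higher (62.5%), beside 72.3% of all listed genes. In the longest class, from 5388 bases, 9 of 36 members were higher (25%), beside 32.2%. The classes between gave 46.7% beside 54.9% and 25% beside 43.9%. In each class the members' share was thus below that of all listed genes. Outside chromosomes 4, 7, 13 and 15 the second class turned, with 63.6% of 11 members higher beside 60.0% of all listed genes. In the other classes there the members stayed below, at 66.7%, 33.3% and 29% beside 76.8%, 48.0% and 35.6%. Between roles, length and direction did not always go together. Median lengths were 5678 bases for centrosome genes and 5980 for cohesin core and SMC5, which were mostly or all lower, but 6103 for the other kinesins, with 6 higher and 7 lower. Condensin, mitotic kinesin and augmin genes, each with 4 listed and all lower, had medians of 4212, 3893 and 2796 bases. Aurora kinases and TPX2 had 2248 and inner kinetochore genes 1998. The part of length in these directions was not tested.

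**Figure D4:**
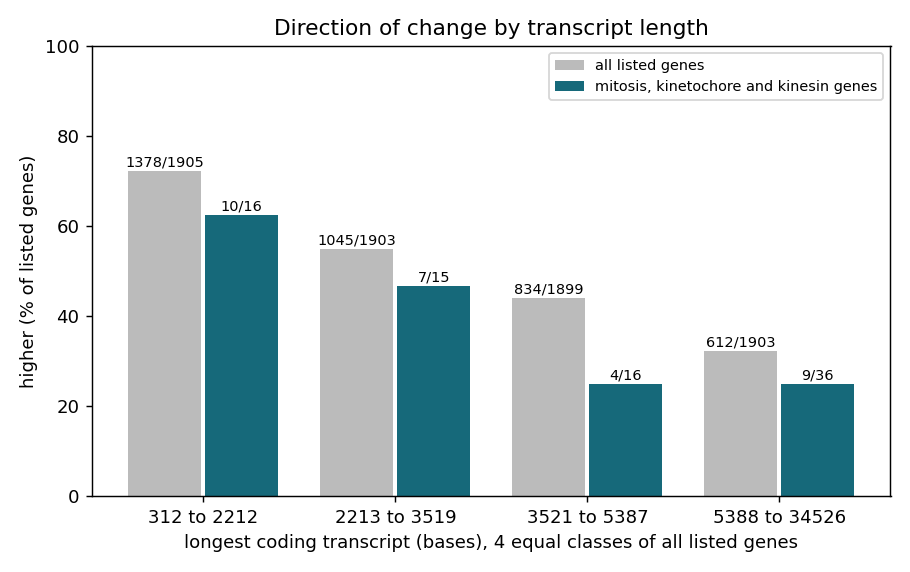
Bars give the percentage of listed genes that were higher, for all listed genes (grey) and the mitotic genes (green), in 4 classes of transcript length on the x axis, with the counts above each bar. The share falls from 72.3% to 32.2% of all listed genes and from 62.5% to 25% of the members between the shortest and longest class.

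Genes known to peak in G2 and M phase showed no shared direction. Of 44 such genes of this family 25 were listed, 11 higher and 14 lower, with a median log2 fold change of -0.20 per the authors' deposited table, and none reached a log2 change of 1. That is 44.0% higher beside 50.7% of all listed genes. Outside chromosomes 4, 7, 13 and 15, 11 were higher and 10 lower. Ki-67 and cyclin A transcripts were thus lower while CDC20, CDC25B, CDK1 and CEP55, transcribed in the same part of the cycle, were higher.

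CHR-type letters occurred in promoters of higher and of lower genes of this group. Stretches before the annotated start are shown for 4 higher and 4 lower genes of the G2/M group. Of the lower genes CCNA2, CCNB2 and BUB1B lie on chromosomes 4 and 15, where most listed genes of any function were lower. The stretches are examples picked with matches and directions known, so they test nothing about direction. They are RefSeq sequences of GRCh38.p14 on the gene's strand, written 5′ to 3′, and capitals mark each match, on either strand, to the letters TTTGAA, to the variant TTCGAA, to the looser form TTTAAA, or to the form known from cyclin A, CTTGAA.
PLK1, higher, chr16:23678809-23678888, plus strand: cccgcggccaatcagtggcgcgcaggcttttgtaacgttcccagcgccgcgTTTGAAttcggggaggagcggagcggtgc
CDC20, higher, chr1:43358891-43358970, plus strand: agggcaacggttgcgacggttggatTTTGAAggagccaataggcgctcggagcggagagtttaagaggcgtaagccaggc
CDK1, higher, chr10:60778156-60778235, plus strand: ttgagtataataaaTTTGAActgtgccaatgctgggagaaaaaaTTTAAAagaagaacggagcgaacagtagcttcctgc
CEP55, higher, chr10:93496482-93496561, plus strand: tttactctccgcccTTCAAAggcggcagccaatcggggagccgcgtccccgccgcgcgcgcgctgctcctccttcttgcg
CCNA2, lower, chr4:121823884-121823983, minus strand: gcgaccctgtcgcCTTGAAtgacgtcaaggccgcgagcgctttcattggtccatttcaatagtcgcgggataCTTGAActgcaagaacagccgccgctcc
CCNB2, lower, chr15:59105066-59105145, plus strand: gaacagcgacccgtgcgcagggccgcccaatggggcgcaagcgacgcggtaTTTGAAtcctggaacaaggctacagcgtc
BUB1B, lower, chr15:40160989-40161068, plus strand: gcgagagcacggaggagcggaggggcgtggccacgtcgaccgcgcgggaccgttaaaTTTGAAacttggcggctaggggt
MKI67, lower, chr10:128126424-128126503, minus strand: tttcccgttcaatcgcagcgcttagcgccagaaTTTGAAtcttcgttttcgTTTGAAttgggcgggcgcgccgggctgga
In PLK1 and CCNB2 the TTTGAA began 29 bases before the start, and in MKI67 it occurred at 47 and 29 bases before it. The stretches of CDK1 and CEP55 lie farther from the annotated start. CEP55 had 2 matches, both on the opposite strand, and the second, across the start, is not in the printed stretch.

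The letters TTTGAA or TTCGAA, searched on both strands from 250 bases before to 50 after the start, were found in 36 of 73 members with a promoter in the reference (49.3%). Of 15843 protein-coding promoters of the same length 13.5% held them, and of those of listed genes 10.5%. Among the G2/M group 18 of 23 promoters had a match (78.3%), among the other members 18 of 50 (36%). Higher members had one in 10 of 25 promoters (40.0%) and lower members in 26 of 48 (54.2%). CCAAT, the core of the NF-Y box that often accompanies CHR, was found in 18 of 25 higher (72.0%) and 24 of 48 lower members (50%), beside 36.4% of all protein-coding promoters. CCAAT and the CHR letters can share 1 end base. A match describes the letters only and does not show that a factor binds there.

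**Figure D5:**
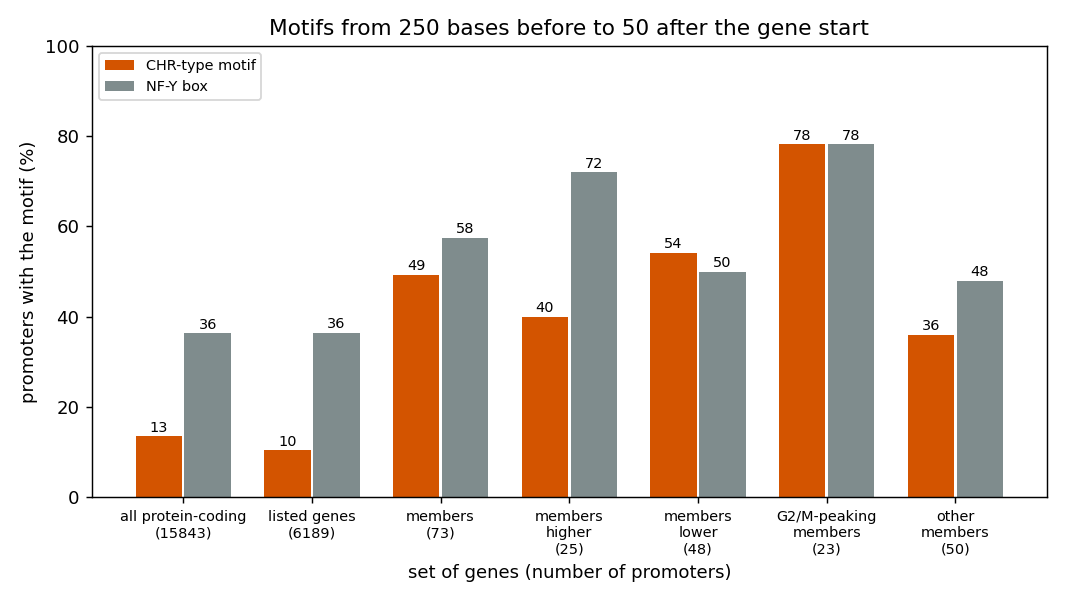
Bars give the percentage of promoters with a CHR-type motif (TTTGAA or TTCGAA, orange) or an NF-Y box (CCAAT, grey) in each set of genes on the x axis, with the number of promoters in brackets. The G2/M group has the highest share of either motif, 78.3% each, against 13.5% and 36.4% of all protein-coding promoters.

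Other genes of mitosis outside the symbol rule leaned the same way. Of 73 such genes, among them kinetochore scaffolds, cohesin regulators and cytokinesis factors, 44 were listed, 15 higher and 29 lower. Their share of higher genes was 34.1% beside 50.7% of all listed genes, and their median log2 fold change was -0.21 per the authors' deposited table. Those with the smallest q-values were UBE2S, described with the APC/C, NUMA1, CKAP2L and PDS5B. NUMA1, which anchors spindle poles, was 1.53-fold lower (q = 7.83e-35), and CKAP2L, a spindle protein, 1.71-fold higher (q = 2.93e-24) per the authors' deposited table. Without chromosomes 4, 7, 13 and 15 this list had 13 higher and 18 lower genes, or 41.9% higher beside 55.4%.

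Genes that control this program were listed too. Of 24 such regulators 15 were listed, 4 higher and 11 lower, with a median log2 fold change of -0.36 per the authors' deposited table. That is 26.7% higher beside 50.7% of all listed genes. Outside chromosomes 4, 7, 13 and 15, 4 were higher and 8 lower. CDKN1A, which encodes the CDK inhibitor p21, stood at 1.71 on the log2 scale, its q-value printed as 0, per the authors' deposited table. TFDP2, a partner of E2F factors, and RBBP4, a histone-binding subunit of MuvB complexes, were 1.53-fold and 1.38-fold lower per the authors' deposited table. Of 11 genes for subunits of the DREAM complex, grouped after the values were seen, 7 were listed and all 7 were lower, 2 of them on those chromosomes. Among all listed genes 49.3% were lower. MYBL2, whose product joins MuvB to activate G2/M genes, was named after its value was seen and stood at 0.28 per the authors' deposited table.

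Overlapping genes limit some of these values. Exons of 33 members overlap another annotated gene, and for 22 members the other gene is protein-coding. The sources used here do not say whether the counting used strand. Of 12 such overlaps whose coding partner was itself listed, 9 had the same direction, among them BUB1B with its readthrough transcript. How often neighbouring listed genes without overlap share a direction was not worked out, so this count shows no effect of overlap. CCNA2 overlaps EXOSC9, at a log2 fold change of -0.53, and CENPU overlaps PRIMPOL, at -0.71, per the authors' deposited table. Both pairs lie on chromosome 4, where 16.8% of all listed genes were higher. CEP68, lower, overlaps RAB1A, which was higher at 0.27 per the authors' deposited table. These 3 partners were chosen after their values were seen.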

How the data were processed

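RNA was sequenced from 6 HCT116 cultures, 3 labelled wild type and 3 labelled Rab27B KO, and samples were grouped by their titles. RNA was purified on columns and sequenced by a service with DNBSEQ libraries, per the labels' protocols. The submitters' processing notes name HISAT, Bowtie2 and the build GRCh38. The sources used here do not give what each did, how reads were counted and scaled, or which test was run. Nothing says whether the biological replicates of a group came from separate thaws. Since the test is not given, it is also unknown whether the q-values reflect the spread between these samples.

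The 2 deposited tables hold, per the file headers, the log2 of Rab27B KO over wild type, a q-value and, for higher genes only, the linear ratio, which matched the log2 value to a relative 4.53e-10. Directions and q-values are the authors' own, and no test was added. Precision cannot be given, since depth and values per sample are unknown.

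Members were taken by symbol, with quotes removed. Members and lists (roles in mitosis, 44 G2/M-peaking members, 73 other mitosis genes, 24 regulators) were chosen with earlier results of these data known. Any member may be named; of the other lists, up to 4 genes with the smallest q-value and CDKN1A. Some genes within this rule are not reported here. Gene IDs were matched to RefSeq on GRCh38.p14 (7656 of 7681, all 83 members), which gave coordinates (1-based) and promoters (73 members). Transcript lengths and exon overlaps came from GENCODE release 29. Alternatives were a stricter q-value (0.01), a minimum log2 change of 1, leaving out 4 chromosomes, reference symbols, no readthrough genes, and other motif letters or windows. Counting of directions and the motif search were tested on simulated data. Python 3.11.15, pandas 2.3.3, numpy 2.4.6, scipy 1.17.1 and matplotlib 3.10.9 were used.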

Additional observations from a re-analysis of the deposited data

How the results depend on the processing

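Counts kept within 1.5 times of those reported for the members, the G2/M group and the number of role groups with more lower genes at a q-value below 0.01, with reference symbols and without chromosomes 4, 7, 13 and 15. Without these chromosomes the G2/M group turned from 11 higher and 14 lower to 11 and 10, and the lower genes among other mitosis genes went from 29 to 18, since fewer genes entered. At a q-value below 0.01 the role groups with more lower genes still numbered 8, but they were not the same groups. The other kinesins turned from 6 higher and 7 lower to 5 and 2, and the chromosome condensation and coat genes from 1 and 1 to 0 and 1. At a log2 change of at least 1, 0 members were higher and 2 lower, the G2/M group and the other mitosis genes each had 0 in either direction, and 2 role groups had more lower genes. The share of member promoters with the CHR letters was 37.0% (5.45% of all protein-coding promoters) from 100 bases before to 50 after the start. With 4 forms of the motif, an alternative chosen after seeing the data, it was 61.6% (27.0%). Leaving out a replicate was not run, and no paired analysis was possible because the tables hold no values per sample. Depth is unknown, so folds resting on few reads cannot be told from others except by their q-values.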
